A study of Mus musculus with 6 samples.

Results

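Forestomach epithelium of control mice, in 3 samples, was compared, array by array, with a common reference RNA pooled from cell lines. Only the 3 control arrays of the series entered, of 6 arrays in all, and no mutant array was used. On each 2-colour array the amplified RNA of 1 control sample was in the Cy5 channel and Agilent's Universal Mouse Reference RNA, made from 11 mouse cell lines, was in the Cy3 channel. The controls were K5-CreER mice of mixed 129/Sv and C57/BL6 strain, which carry a tamoxifen-activated Cre recombinase under the promoter of keratin 5 and so express the enzyme in basal squamous cells. They had received 2 doses of tamoxifen at 7 weeks of age, as had the mutants of the series, and were 12 weeks old by their labels. The tissue was the epithelial sheet of the forestomach, and the labels give the 3 arrays as biological replicates. Of 19724 genes with a RefSeq symbol on the array, 16266 had a probe well above background in either channel on at least 2 of the 3 arrays and were tested.

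The mouse forestomach is the part of the stomach next to the oesophagus, and it is lined by a stratified squamous epithelium that keratinises, unlike the mucus- and acid-producing glands of the hind stomach. Its basal cells rest on a basement membrane through hemidesmosomes, express keratins 5 and 14 with the transcription factors p63 and SOX2, and divide. Their daughters leave the membrane, switch to keratins 4 and 13, and build a cornified envelope of cross-linked proteins under layers of lipid. The cell lines of the reference are not named in the labels. A ratio above 0 on the log2 scale means more signal from a transcript, relative to the centre of the array, in the forestomach than in the pooled cell lines.

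The array reads each gene with probes of 60 bases. Sequences are shown for keratin 13, keratin 4 and p63 (Trp63), because these are markers of squamous identity and because probes of 1 gene gave different ratios. The positions are those of the array design in mouse build mm9. The probes shown lie in the coding part of their transcripts.
Krt13, transcript position 279, chr11:99982471-99982530, minus strand: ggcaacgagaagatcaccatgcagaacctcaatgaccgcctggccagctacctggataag
Krt13, transcript position 698, chr11:99980710-99980948, minus strand and across an intron: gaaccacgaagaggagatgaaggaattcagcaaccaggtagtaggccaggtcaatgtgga
Krt4, transcript position 1187, chr15:101750158-101750736, minus strand and across an intron: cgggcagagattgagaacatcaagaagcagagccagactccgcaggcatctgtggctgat
Trp63, transcript position 773, chr16:25865388-25866165, plus strand and across an intron: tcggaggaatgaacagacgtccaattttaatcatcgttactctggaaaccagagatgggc
The pair of Krt13 probes gave mean log2 ratios of 4.90 and 4.17. The Trp63 probe shown, which reads the part coding for the DNA-binding domain, gave 3.08, against 6.99 for a probe at position 4497 of the same transcript and 1.96 for another probe. Reference signal of the Trp63 probe shown was well above background on 1 array, and of the probe at 6.99 on all 3. All of these probes were on the same side of 0 on every array, so the direction did not depend on the probe while the size did. Values below come from the probe with the highest mean signal over both channels. For Krt13 that was the one at position 698 and for Krt4 the one shown. For Trp63 it was the one at position 4497, whose sequence is not shown. For the other markers that was a probe at chr15:101537514-101537573 (transcript position 2119) for Krt5, at chr11:100064683-100065288 (1393) for Krt14 and at chr3:34550773-34550832 (1846) for Sox2.

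The arrays differed in quality. Between 62.6% and 74.9% of the 41174 non-control probes were well above background in the forestomach channel, and control 3 was the lowest. Its median forestomach signal was 4.81 times the local background, against 12.1 and 12.5 on controls 1 and 2, and its median reference signal was 6.61 times the background, against 19.8 and 19.4. The log2 ratios of controls 1 and 2 correlated across probes with r = 0.990 and those of control 3 with the other two with r = 0.894 and 0.903, which is a description across probes that share both RNAs' design and no test. Controls 1 and 2 were on 1 slide, and control 3 was on another slide, scanned on another day with another version of the scanner software, so mouse, slide and scan cannot be told apart. The median absolute difference between control 3 and the mean of controls 1 and 2 was 0.38 over all genes, against 0.10 between controls 1 and 2. Over 210 probes printed 10 times each, controls 1 and 2 had a median absolute difference of 0.10 where the spread of the spots alone would give 0.018, so they were not the same values deposited again. That comparison cannot tell 2 samples from 2 hybridisations of 1 RNA, and they were counted as separate samples from their labels. Many results below are therefore given by array, and some also with control 3 left out. Where no count without control 3 is given for a list, the count may still differ without it. Where 3 values follow a gene, they are its log2 ratios on controls 1, 2 and 3 in that order, and a single value is their mean. The standard error of these means from limma had a median of 0.20 and ran from 0.09 to 1.57 over the genes named.

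Over all genes tested, the median log2 ratio was 0.01, the quartiles were -0.77 and 0.77, and the range ran from -7.04 to 8.99. A gene was called higher or lower where limma's test of the mean ratio against 0 gave an adjusted p under 0.05 and the mean differed by at least 2-fold. By that rule 3205 genes (19.7% of those tested) were higher in the forestomach and 3189 (19.6%) were lower. Of the genes called higher, 3199 had a ratio above 0 on all 3 arrays, and of those called lower, 3188 had a ratio below 0 on all 3. The rule uses the same values, so this is no separate support for the calls. The extremes were uneven: 167 called genes were at least 32-fold higher and 12 at least 32-fold lower. Without control 3 the counts were 3446 and 2919, and 3020 and 2798 of these were also called with it. The reference is 1 product, and its own spread is left out of these tests. No dye was swapped, so a gene's dye preference is part of its ratio.

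All 6 genes that mark squamous forestomach epithelium were higher in the forestomach on every array, so its markers were found in each sample. They do not tell whether other tissue was present. Glandular stomach genes, described below, had medians of 3.89 and 3.78 on controls 1 and 2 and 0.39 on control 3. Keratin 5 (Krt5), the filament protein of basal cells and the gene whose promoter drives the Cre of these mice, had log2 ratios of 3.58, 3.56 and 3.71 on controls 1, 2 and 3. The mean of 3.62 ± 0.08 (SD, n = 3) makes the signal 12.3-fold higher, and limma gave it an adjusted p of 2.0e-04. Its partner Krt14 was at 2.81, 2.84 and 3.40, with a mean of 3.02 ± 0.33. Krt4 and Krt13, the pair that replaces them above the basal layer, varied more between arrays. Krt4 was at 4.67, 4.57 and 6.03, and Krt13 at 3.53, 3.57 and 5.41. In both, controls 1 and 2 nearly coincided and control 3 was the highest. Without control 3 the means were 4.62 for Krt4 and 3.55 for Krt13, the latter beside 3.57 for Krt5. The other Krt13 probe was at 4.77, 4.69 and 5.24, with an SD of 0.29. How far Krt13 varied between arrays, and how close it was to Krt5, thus depended on the probe.

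Sox2, the transcription factor of foregut and squamous progenitors that the mutants of the series overexpress, had ratios of 6.26, 6.09 and 6.38, a mean of 6.24 ± 0.15 and a 75.8-fold difference, with the reference signal of its probe well above background on 2 of the 3 arrays, so the size of the fold leans on a dim reference. Trp63, which encodes the master regulator of stratified epithelia, was at 7.18, 7.03 and 6.76, with a mean of 6.99 ± 0.21. These ratios barely differed between arrays, and the 3 arrays of Sox2 lay closer together than those of either suprabasal keratin. The adjusted p was 2.0e-04 for each of them by limma.

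**Figure D1:**
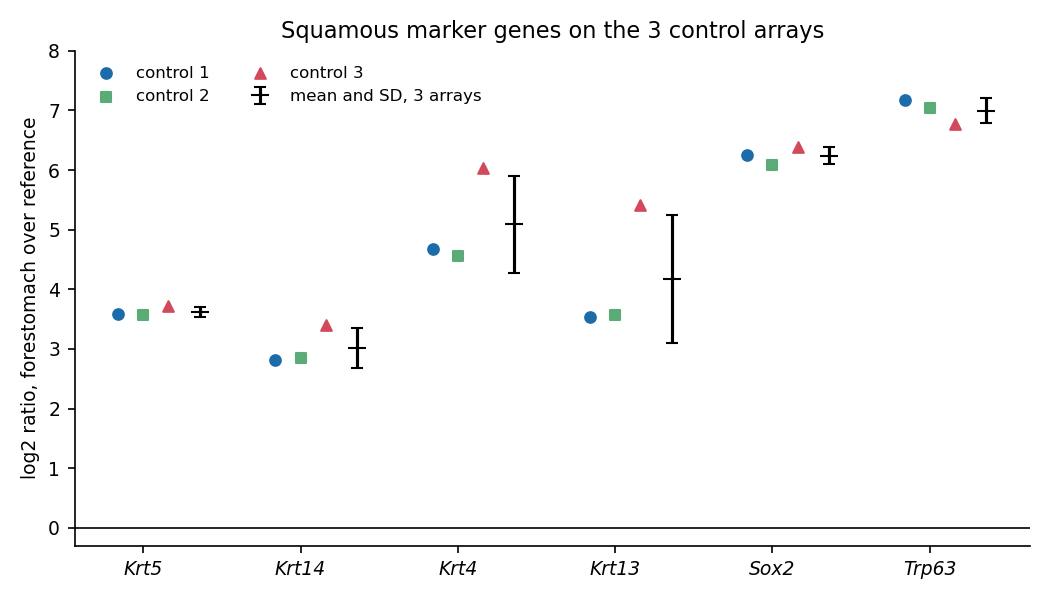
Log2 ratio of forestomach over reference signal (vertical axis) for the 6 squamous marker genes (horizontal axis), with a symbol for each control array and a bar for the mean and SD of the 3. All 18 points lie above 0, and control 3 stands above controls 1 and 2 for Krt4 (6.03) and Krt13 (5.41) while the arrays nearly coincide for Krt5 and Sox2.

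The 20 named genes with the highest ratios were mainly protease inhibitors, barrier genes and membrane proteins of squamous epithelium. Stefins, small cystatins that inhibit cathepsins, took 4 of the first 6 places: Cstdc5 with a mean of 8.99, Csta1 with 8.60, Stfa1 with 8.47 and Stfa3 with 7.74. Cstdc5 had 8.80, 8.70 and 9.48 on controls 1, 2 and 3, and Stfa1 had 8.30, 8.33 and 8.78. The squamous serpins Serpinb3c (8.44) and Serpinb3b (7.59) and Spink5 (7.05), the inhibitor of epidermal kallikreins, were in the same group. The stefin and Serpinb3 genes are families of near copies, so a probe may read more than 1 of them.

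Several of the others build the barrier. Kprp, a keratinocyte proline-rich protein, was at 8.20, 7.79 and 9.65. Abca12, the lipid transporter that fills lamellar granules, was at 6.93, 6.87 and 8.34. Elovl4 (7.16), which lengthens fatty acids for skin ceramides, and Lipm (7.28), an epidermal lipase, were also among them. Gjb6 (7.48), the gap junction protein connexin 30, and Trpv3 (7.57), the warmth-sensing channel of keratinocytes, are likewise known from skin. Of genes less tied to the squamous lineage, Aadac (7.69), a microsomal deacetylase, Mal2 (7.51), a protein of apical transport, Plbd1 (7.13), a phospholipase-like protein, and the neural adhesion genes Chl1 (7.17) and Slitrk6 (7.14) were as high. In 19 of the 20, control 3 had the highest of the 3 ratios, and Trp63 was the exception. Over all probes tested, the log2 ratios of control 3 also had the widest spread, with an SD of 1.54 against 1.39 on controls 1 and 2. The 20 were picked on a mean that includes control 3. The part of this choice and of the spread was not tested. The exception of Trp63 depends on the probe. Control 3 was highest on the Trp63 probe shown above (2.91, 2.82 and 3.52) and lowest on the one with a mean of 1.96.

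The 20 genes with the lowest ratios held neural, matrix, leukocyte and inflammatory genes. Spp1 (osteopontin), a secreted matrix protein, was at -6.02, -6.09 and -8.19 on controls 1, 2 and 3. The intermediate filament gene of mesenchymal cells, Vim, was at -4.44, -4.58 and -5.93, and Ptprc, which encodes the pan-leukocyte antigen CD45, was at -4.90, -4.96 and -5.74. Genes of matrix breakdown and adhesion such as Mmp3 (-5.88), Vcam1 (-5.22) and Nid2 (-4.72), and inflammatory genes such as Cxcl1 (-5.34), Ccl4 (-4.77) and Clec4d (-4.83), were in this group, as were the neuronal RNA-binding gene Elavl2 (-5.55) and Eya4 (-4.69). Also among them were Phex (-5.32), Ifi202b (-5.28), Xlr (-5.36), Rpl39l (-5.39), Apbb1ip (-4.95), Ptpn22 (-4.84) and Msln (-4.65), which had no value on control 1. Forestomach signal of Mmp3, Elavl2, Xist, Phex, Nid2 and Eya4 was well above background on 2 of the 3 arrays, so the size of their difference leans on dim spots.

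Xist, the RNA that silences an X chromosome in female cells, was the least even of them, with -6.15 and -6.31 on controls 1 and 3 and -3.93 on control 2. The 4 Y-linked genes tested were higher than the reference on every array: Eif2s3y at 2.94, 2.79 and 3.06, Kdm5d with a mean of 1.68, Ddx3y with 1.21 and Uty with 1.03.

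**Figure D2:**
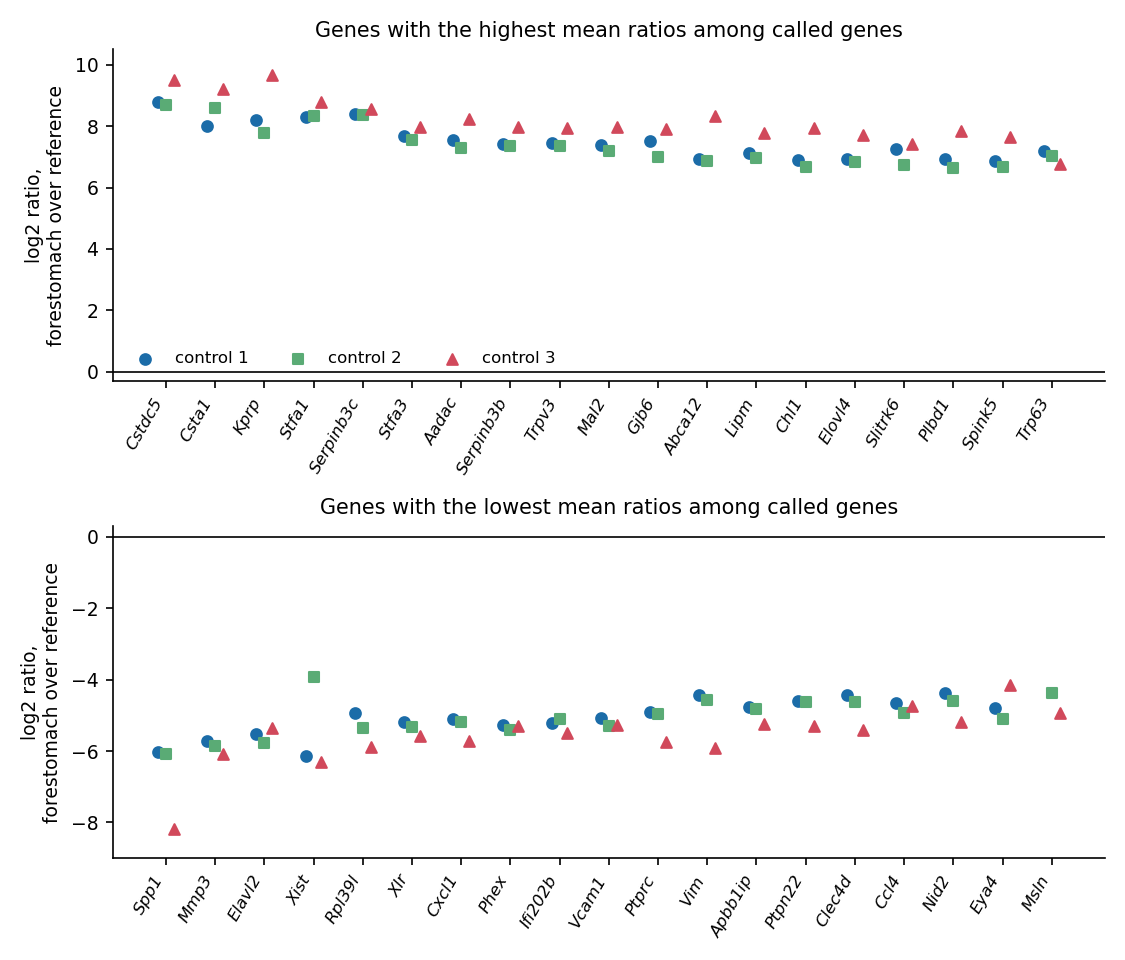
Log2 ratios of forestomach over reference on each control array for 19 of the 20 called genes with the highest mean (upper panel) and 19 of the 20 with the lowest mean (lower panel), with gene names on the horizontal axis. The upper points run from 6.64 to 9.65 with control 3 mostly on top, and the lower ones reach -8.19 for Spp1, with the Xist point of control 2 (-3.93) apart from the other two.

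To describe the tissue more fully, 51 lists of genes by cell type, structure or pathway were used, with 1371 genes in all. Of these, 1340 were on the array and 1263 passed the filter on dim probes. A share of called members is to be read against the 19.7% and 19.6% of all genes, and no list was tested as a set. Counts of members above or below the other arrays on control 3 are descriptions, and the share of all genes on either side is not given here. Over all genes tested, the median difference of control 3 from the mean of controls 1 and 2 was -0.08. The part of the wider spread of its ratios (SD 1.54 against 1.39) in these counts was not tested.

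The keratins of stratified epithelia were high as a family. Of 22 listed, 20 were tested, 19 were called higher and none lower, and their median log2 ratio was 3.67. Beside the markers, Krt23 (mean 4.58), Krt79 (4.42) and Krt76 (4.21) were high on every array. Krt1, the keratin of cornifying layers, was at 3.92, 3.93 and 5.83, and Krt10, its partner, was at 3.77, 3.71 and 4.89. The keratins that are induced by wounding and stress went the other way between the slides. Krt16 was at 4.46, 4.51 and 2.17, Krt6b at 3.99, 3.81 and 1.97, Krt17 at 3.46, 3.24 and 1.86, and Krt6a at 2.92, 2.99 and 0.29. Control 3 was thus below controls 1 and 2 for these 4 and above them for 15 of the 20 keratins. Krt2, of the upper epidermis, was the only one not called, with a mean of 0.14.

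The keratins of simple, 1-layered epithelia were uneven. Krt18 was lower than the reference on all arrays, at -1.06, -1.33 and -2.72. Krt7 was higher, at 1.61, 1.60 and 0.27. Krt19 was at 1.49, 1.24 and -3.47, Krt20 at 0.89, 0.41 and -4.58, and Krt8 at -0.06, -0.33 and -3.53, and none of these 3 was called. In all 5, control 3 was the lowest array, and without it Krt19 was also called higher, with a mean of 1.37.

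Structures that hold the sheet together differed in how far they stood out. Of 15 desmosome genes tested, 12 were higher and 1 was lower, with a median of 3.68. Perp, a p63 target needed for desmosomes, was at 6.15, 6.12 and 7.60. The desmosomal cadherins Dsc1 (5.83), Dsg1a (5.77) and Dsg1b (4.28), and the plakophilins Pkp1 (4.03) and Pkp3 (3.83) of their inner plaque, followed. Pkp2, the plakophilin of heart and simple epithelia, was the 1 lower member, at -2.14, -2.43 and -5.61. The cadherin of simple epithelia, Dsg2, was higher, and also lowest on control 3, at 4.66, 4.72 and 1.96.

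Of 23 genes of tight and adherens junctions, 18 were higher and none was lower, with a median of 2.22. Cdh1, the epithelial cadherin, was at 5.17, 5.07 and 6.16. The claudins Cldn23 (5.89) and Cldn1 (4.70), the latter essential for the skin barrier, and occludin (Ocln, 4.57) were the highest of the tight junction genes. The catenins that join cadherins to actin, Ctnnb1 (0.15) and Ctnna1 (0.31), were not called.

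Of 22 hemidesmosome and basement membrane genes, 9 were higher and 4 lower, with a median of 0.18. Col17a1, the transmembrane collagen of the hemidesmosome, was at 4.91, 4.66 and 6.07. Dst, its cytoplasmic linker (4.75), and the integrin Itgb4 (3.14) were also high, as were the epithelial laminin chains Lama3 (2.75) and Lamb3 (1.81). The integrin chains Itga6 (-0.43) and Itga3 (-0.40) were not called, Itgb1 was at -1.49, -1.53 and -2.78, Lamc1 had a mean of -1.70, and the matrix protein Nid1 was at -3.12, -3.41 and -6.11.

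Genes of the cornified layers were high. Of 44 listed envelope precursors, 39 were on the array and 38 were tested, of which 35 were higher and none lower, with a median of 3.99. Late envelope proteins led: Lce3f was at 6.52, 6.33 and 7.80, Hrnr, a filaggrin-like protein, at 6.05, 5.87 and 7.82, and Sprr3, a small proline-rich protein of wet squamous epithelia, at 5.55, 5.64 and 6.66. Lor, which encodes loricrin, was at 4.39, 4.39 and 6.97, and Ivl, which encodes involucrin, was at 4.36, 4.20 and 4.83. Control 3 was the highest for most of these, and its median difference from the mean of controls 1 and 2 was 0.96 over the 38 genes, with 32 of them higher on control 3. On the same array 30 of 33 glandular stomach genes, described below, lay under the mean of controls 1 and 2, and their part in this difference was not tested. Forestomach signals of Lor, Crct1 and Lce3f were saturated on controls 1 and 2, the brighter arrays, and not on control 3, so their ratios on controls 1 and 2 are low estimates. Members of the Lce1 and Sprr2 clusters are near copies of each other, and their probes may not be specific.

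Enzymes and lipid genes of cornification were also high, with 32 of 35 higher, 1 lower and a median of 3.92. Asprv1, the protease that trims profilaggrin, was at 4.21, 4.20 and 6.26, and Klk8, an epidermal kallikrein, had a mean of 4.69. Of 25 protease inhibitors tested, 22 were higher and 1 was lower, with a median of 4.32. Serpinb13 (6.46), Serpinb5 (5.89) and Serpinb12 (5.16), the last at 4.42, 4.59 and 6.46, joined the stefins. Serpinb6a, a serpin found in many cell types, was the lower one at -2.70.

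Regulators of the squamous lineage were high with exceptions. Of 33 transcription factors tested, 25 were higher and 5 lower, with a median of 2.90. Zfp750, a p63 target that drives terminal differentiation, was at 6.72, 6.58 and 7.02. Grhl1, which controls desmosomal cadherins, was at 6.14, 6.13 and 7.40. Tfap2c (5.89), Elf5 (5.74), Klf4 (4.51) and Ovol1 (4.62), all factors of epidermal development or differentiation, were also higher. Pitx1, a hindlimb and jaw factor, was at 4.31, 4.17 and 6.20. Among the lower ones were Runx1 (-1.52), Tbx3 (-2.10), Bnc1 (-2.35) and Maf (-2.38). Gata3 (0.55) and Elf3 (0.68) were not called.

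Of 15 other SOX genes tested, 7 were higher and 2 lower, with a median of 0.38, or of 2.10 with the probe of highest forestomach signal for each gene. Sox6 was at 5.57, 5.37 and 5.61 and Sox21, a close relative of SOX2, at 5.42, 5.49 and 4.11. Sox7 (4.43), Sox17 (3.06) and Sox18 (2.33), which are also endothelial genes, were higher, and so were Sox13 (2.67) and Sox15 (2.10). Sox11, of embryonic and neural progenitors, had a mean of -2.74 and Sox4 of -1.04. Sox9, at -0.94, -1.13 and -4.09, was not called, and the probe of Sox9 with the highest forestomach signal had a mean of 4.46, so its direction depends on the probe. Sox21 has a further probe, which had a mean of -1.68 and took its place when only probes above background in both channels on all arrays were kept, so its direction is uncertain.

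Of 22 factors of foregut and gut fate tested, 7 were higher and 4 lower, with a median of 0.77 and 5 more on the array but too dim. Barx1, the stomach mesenchyme factor, was at 2.75, 2.12 and 1.04, and the gut factor Hnf4a at 3.02, 2.88 and 0.91. Foxa2, of endoderm, was at 2.76, 2.24 and -2.77 and not called, and Gata6 was at -0.69, -0.81 and -3.72. For 18 of the 22, control 3 was below the mean of the other arrays, and without it 12 were called higher. On control 3, 30 of 33 glandular stomach genes and 13 of 14 smooth muscle genes were also below that mean, and their part in this was not tested.

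HOX genes, which set position along the body axis, were lower in 15 of 32 cases, higher in 3 and not called in the others, with a median of -0.99. The 3 higher ones were neighbours in the C cluster: Hoxc5 at 2.79, 2.63 and 2.76, Hoxc8 at 2.25, 2.49 and 2.34, and Hoxc6 at 1.30, 1.38 and 1.17. Hoxc4, at 0.35, 0.24 and 0.67, was not called, and Hoxc9, at -3.66, -3.90 and -4.41, was the lowest of the family. Hoxa10 (-3.89) and Hoxa11 (-3.87) were as low. Of the 11 tested genes in paralog groups 9 to 13, 8 were lower and none was higher. Of the 11 in groups 5 to 8, 4 were lower and 3 higher, and of the 10 in groups 1 to 4, 3 were lower and none higher. Control 3 was below the mean of the other arrays for 19 of the 32 and above it for 13.

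Genes of dividing cells were lower almost without exception. Of 48 genes of mitosis and G2/M, 46 were lower and none higher, with a median of -2.19. Mki67, the proliferation antigen, was at -2.17, -2.08 and -3.92, and Bub1, a spindle checkpoint kinase, at -3.74, -3.58 and -5.46. Top2a, which untangles replicated DNA, had a mean of -2.31. Only Pttg1 (-0.57) and Cdca8 (-0.92) were not called. Of 49 genes of DNA replication and G1/S, 45 were lower and none higher, with a median of -1.83, among them the licensing factor Cdt1 (-3.59) and the helicase subunits Mcm4 (-2.94) and Mcm6 (-2.88). The median of the mitotic list was -1.90, -1.87 and -2.81 on controls 1, 2 and 3, so the direction was the same on every array and the size larger on control 3. In bulk RNA, fewer dividing cells and less of these transcripts per dividing cell cannot be told apart.

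Of 19 regulators of G1, 2 were higher and 8 lower, with a median of -0.84. The inhibitors p21 (Cdkn1a, 1.30) and p27 (Cdkn1b, 1.24) were the higher ones. The lower ones were Mycl (-3.08), Cdk6 (-2.17), Cdkn2a (-2.13), Ccng2 (-1.73), Cdk4 (-1.49), Mycn (-1.33), Cdkn2d (-1.29) and Rbl1 (-1.02). Cyclin D1 (Ccnd1, -0.34) and Myc (-0.85) were not called. Of 38 ribosome biogenesis genes, 6 were lower and 1 was higher (5 and 0 without control 3), with a median of -0.61, and Npm1 (nucleophosmin) was at -1.36, -1.37 and -2.27. Of 24 p53 target genes, 4 were higher and 9 lower. The highest was Perp, and Pmaip1, which promotes apoptosis, was at -2.18, -2.43 and -4.59.

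**Figure D3:**
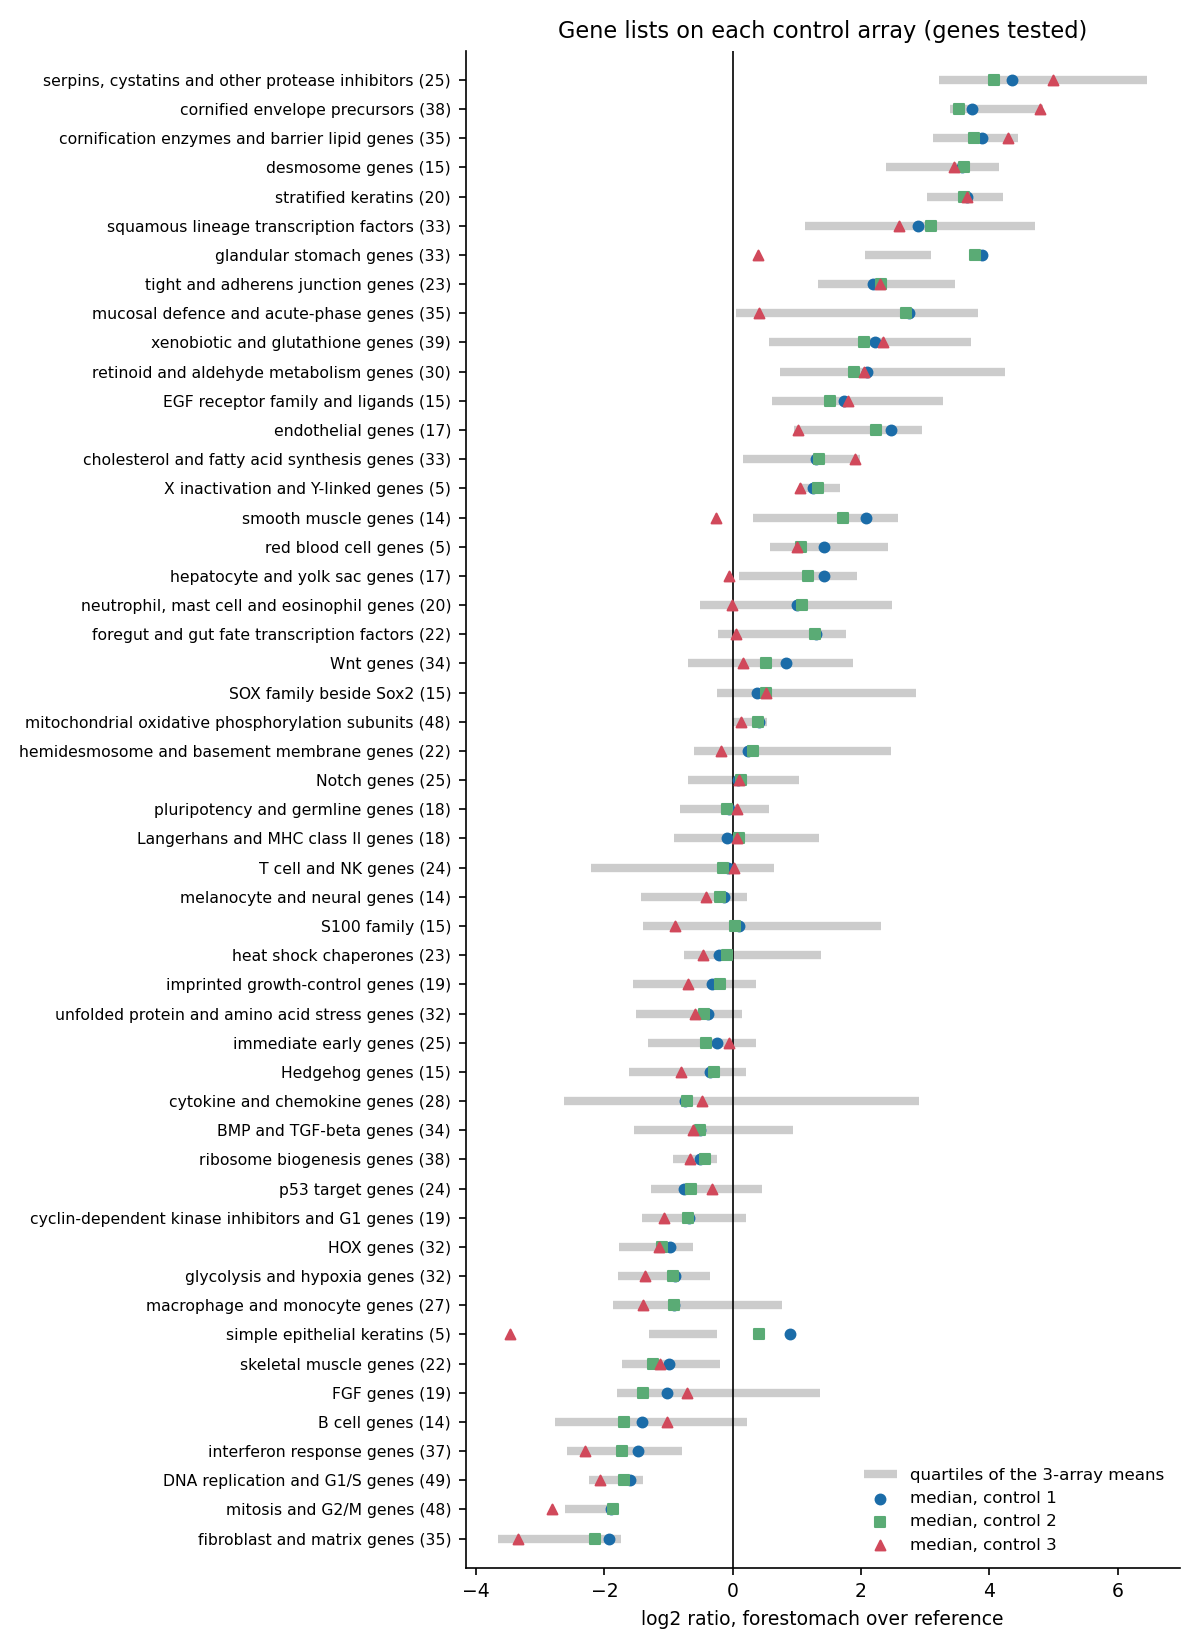
Median log2 ratio of each gene list (rows, with the number of genes tested) on controls 1, 2 and 3, with a grey bar for the quartiles of the members' 3-array means, ordered by the median of those means. Protease inhibitor, cornification, desmosome and stratified keratin lists have the highest medians of the means and matrix, mitosis and replication genes the lowest, and the glandular stomach, smooth muscle and simple keratin lists have control 3 far to the left of the other arrays.

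Markers of other cell types were checked next. Of 33 genes of glandular stomach, 19 were higher than the reference and none was lower, but the arrays split. Their median log2 ratio was 3.89 and 3.78 on controls 1 and 2 and 0.39 on control 3, and 27 of the 33 were above 2 on each of controls 1 and 2 against 4 on control 3. Gkn2, a secreted protein of gastric surface cells, was at 5.63, 5.54 and 0.84. The acid pump subunit Atp4b was at 4.47, 4.27 and 0.54, the chief cell protease precursor Pgc at 3.06, 2.94 and 0.18, and Cldn18, the gastric claudin, at 4.65, 4.42 and 0.02. Anxa10, an annexin of gastric epithelium, was at 7.95, 7.62 and 0.85. Genes of surface, parietal and chief cells were thus above the reference on controls 1 and 2, and on control 3 most were near it, with 28 of the 33 below 1.

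A few stomach genes were still well above the reference on control 3. Slc26a9, a chloride transporter, was at 5.46, 5.39 and 5.82, and Chga, of endocrine cells, at 4.53, 4.42 and 4.46. The gastric mucin Muc5ac was at 4.19, 4.17 and 2.63, lower on control 3 but above 2 there. Esrrg, a nuclear receptor of parietal cells, was higher on control 3, at 2.36, 2.18 and 3.29. The remaining gene higher on control 3 was Gast (gastrin), at 0.31, 0.34 and 0.66.

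Without control 3, 29 of the 33 stomach genes were called higher, with a median of 3.87, and without control 2, 8 were. With it, the spread between arrays left Cldn18 at an adjusted p of 0.057 by limma although its mean was 3.03. Ctse, of gastric surface and pit cells, was at 2.98, 2.66 and -2.58 and not called. Both channels moved on control 3: the median forestomach signal of the list was lower by 4.27 on the log2 scale and the median reference signal by 1.24. The 13229 genes above background in both channels on all arrays had median shifts of 0.18 and 0.20, and 18 of the 33 had a probe passing that filter. Across these 13229 genes the 2 shifts correlated with r = 0.60. Where forestomach signal was at least 4-fold higher on control 3 (268 genes), the median reference shift was 1.53. Where it was at least 4-fold lower (155 genes), that shift was -0.18. For Chia1, a gastric chitinase, the forestomach signal was lower by 10.2 and the reference signal by 5.11. The reference was the same product on every array, and the source of its shift was not tested.

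**Figure D4:**
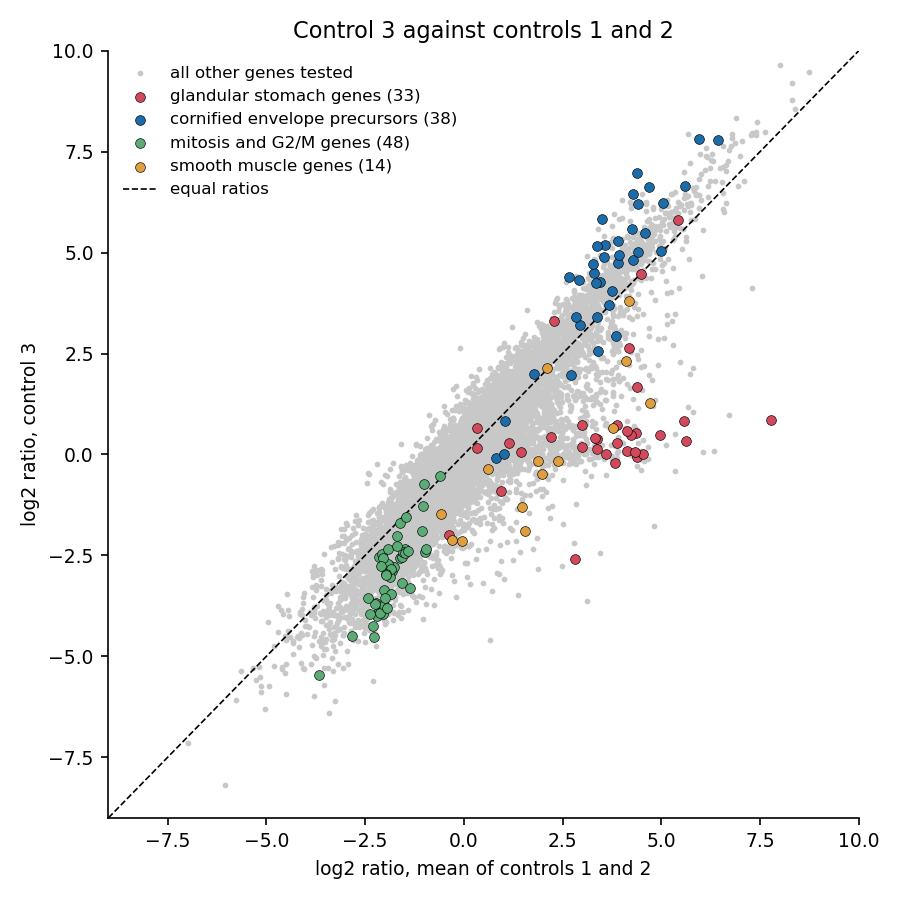
Log2 ratio on control 3 (vertical axis) against the mean ratio of controls 1 and 2 (horizontal axis) for all genes tested, with 4 lists in colour and a dashed line of equal ratios. Of the glandular stomach genes 30 of 33 lie below the line, many of them near 0 on control 3, as do 13 of 14 smooth muscle genes and 46 of 48 mitotic genes, the latter at ratios under 0, while 32 of 38 cornified envelope genes lie above it.

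**Figure D5:**
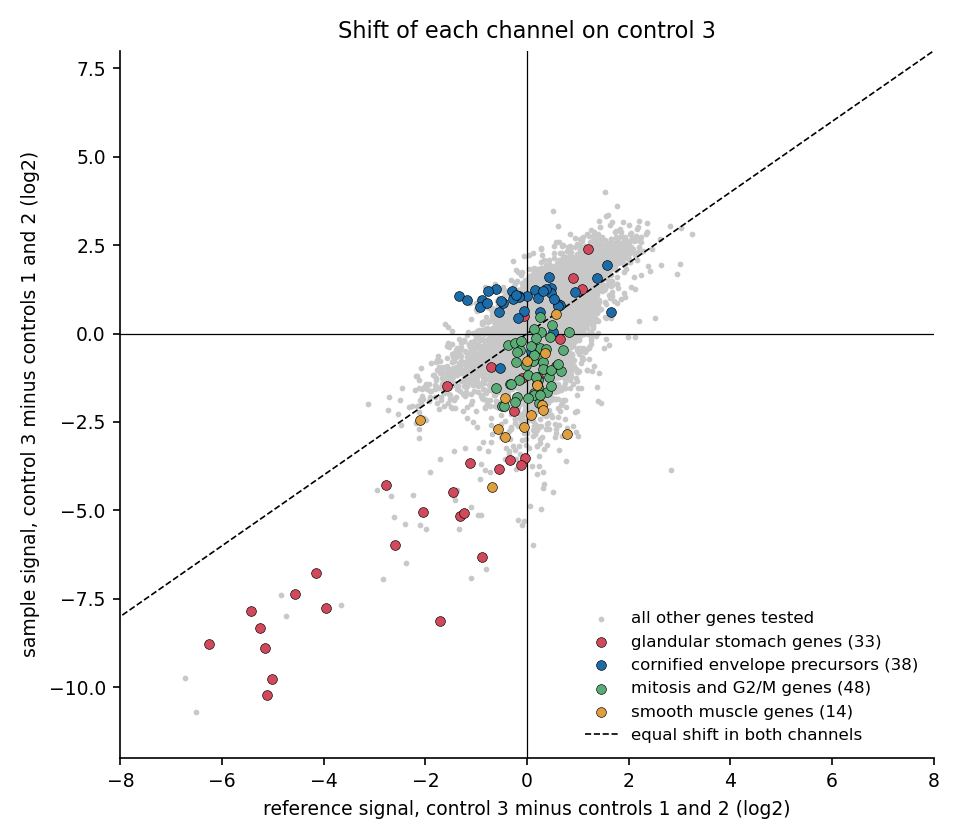
Shift of the forestomach signal (vertical axis) and of the reference signal (horizontal axis) on control 3 relative to the mean of controls 1 and 2, for all genes tested and the same 4 lists. Both are in log2 units of background-corrected signal, centred on each array's median without loess, so their difference need not equal the shift of the ratio. Cornified envelope genes sit near a forestomach shift of 0.97 with reference shifts around 0.04, while glandular stomach genes run down to a forestomach shift of -10.2 with reference shifts below 0.

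Smooth muscle and endothelial genes were also lower on control 3. Of 14 smooth muscle genes, 5 were higher and none lower, with list medians of 2.08, 1.71 and -0.26. Myh11, the smooth muscle myosin, was high throughout, at 4.25, 4.14 and 3.79, whereas Cnn1 (calponin) was at 4.87, 4.55 and 1.27 and Des (desmin) at 1.71, 1.22 and -1.30. Without control 3, 10 of the 14 were called higher. Of 17 endothelial genes, 11 were higher and none lower, with list medians of 2.47, 2.23 and 1.02, and all 17 were lower on control 3 than the mean of the other arrays. Emcn was at 4.86, 4.82 and 3.83 and Cdh5, the cadherin of vessel walls, at 4.01, 3.52 and 1.45. Of 22 skeletal muscle genes, 1 was higher and 11 were lower, and control 3 was below the other arrays for 9 and above them for 13. Haemoglobin RNA was higher on every array, with Hbb-bt at 4.85, 4.61 and 4.36.

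Fibroblast and matrix genes formed the lowest list. Of 35 tested, 28 were lower and 1 was higher (28 and 2 without control 3), with a median of -2.54. Collagen 1 (Col1a1) was at -3.67, -3.92 and -5.99, the cross-linking enzyme Lox at -4.00, -4.23 and -5.16, and N-cadherin (Cdh2) at -4.57, -4.84 and -4.39. Lum, a small proteoglycan of connective tissue, was the only higher member, at 2.68, 2.29 and 0.80, and Postn and Dcn, at 2.37, 2.11 and -0.50 and at 0.04, 0.14 and -1.07, were not called. Control 3 was below the mean of the other arrays for 33 of the 35. These ratios compare the sheets with cultured lines and give no amount of stroma in them.

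Leukocyte lists held genes on both sides of the reference. Of 27 macrophage genes, 7 were higher and 12 lower, with a median of -1.08. Control 3 was below the mean of the other arrays for 25 of the 27, with list medians of -0.92, -0.92 and -1.40. The complement genes C1qc (3.12, 2.89 and 2.87) and C1qa (2.97, 2.94 and 2.60), typical of resident macrophages, were higher, whereas the F4/80 antigen Adgre1 (-2.58), Cd14 (-2.46) and Clec7a (-3.44) were lower. Of 18 genes of Langerhans cells and class II histocompatibility, 5 were higher and 4 lower, with a median of -0.02. The class II chains were among the higher ones: H2-Aa was at 3.42, 3.49 and 3.08, H2-Eb1 at 3.35, 3.43 and 2.92, and H2-Ab1 at 3.06, 3.08 and 3.17. Langerin (Cd207), which defines the Langerhans cells that live in squamous epithelia, was at 1.78, 1.19 and 1.80. Cd1d1 (-3.15), which presents lipids, Cd86 (-1.99), a costimulator, Batf3 (-1.14) and H2-Oa (-1.01) were lower, and the class II invariant chain gene Cd74 (-0.33) was not called. B cell genes had 2 higher and 8 lower of 14, with Ms4a1, the CD20 gene, at -4.45, -4.59 and -4.50. T and natural killer cell genes had 3 higher and 7 lower of 24. Of 20 genes of neutrophils, mast cells and eosinophils, 7 were higher and 3 lower (10 and 4 without control 3), with a median of 0.81 that became -1.27 over the 6 whose probes were above background in both channels on all arrays. The mast cell proteases Cma1 (3.80, 3.38 and 1.87) and Mcpt4 (3.18, 2.87 and 1.50) were higher and the gelatinase Mmp9 (-2.77) was lower.

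Defence genes of the epithelium were among the higher ones. Of 35 mucosal defence genes, 20 were higher and 6 lower, with a median of 2.13. The list median was 2.75 and 2.70 on controls 1 and 2 and 0.41 on control 3. On control 3, 21 of the 35 were below the mean of the other arrays and 14 above it. The membrane mucin Muc15 was at 6.24, 5.97 and 7.06, and the beta-defensins Defb1 and Defb14 were at 5.67, 5.34 and 6.19 and at 5.64, 5.61 and 5.29. Duox1 (4.57), which makes hydrogen peroxide at mucosal surfaces, Slurp1 (4.72) and Lypd3 (4.93) were also higher. Of 15 S100 genes, 5 were higher and 6 lower, with a median of -0.29. Without control 3, 6 were higher and 5 lower, and the median was 0.07. The partners of calprotectin had opposite ratios: S100a9 was at 5.81, 5.67 and 6.02 and S100a8 at -1.14, -1.43 and -2.88. S100a14 (5.42) and S100a16 (3.77), of epithelia, were high, and S100a4 (-4.20) and S100a6 (-2.55), of mesenchymal cells, were low.

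Cytokine genes lay on both sides of the reference. Of 28 tested, 9 were higher and 11 lower (12 and 13 without control 3), and 8 of the 9 belong to the interleukin 1 family, the other being Cxcl16 (1.61). Il1f5, the antagonist of the interleukin 36 receptor, was at 6.29, 6.04 and 7.38. The ligands of that receptor, Il1f8 (5.73), Il1f6 (4.56) and Il1f9 (3.94), followed, with Il18 (5.06), Il1a (4.43), the receptor antagonist Il1rn (3.52) and Il33 (2.71). Inflammatory chemokines and cytokines were lower: Cxcl1 was at -5.10, -5.19 and -5.73, Cxcl5 had a mean of -4.47, Cxcl10 of -4.38 and Ccl2 of -2.75. Il6 was not well above background in the forestomach on any array and was at least 20.1-fold lower than the reference, a bound taken against the lowest signal well above background. Il1b (-0.99) was not called.

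Genes induced by interferon were mostly lower, with 26 of 37 lower, 1 higher and a median of -1.69. For 34 of the 37, control 3 was below the mean of the other arrays. Ifi44 was at -4.19, -4.46 and -4.95 and Ifit1 at -3.44, -3.59 and -3.91. The higher member was Ifitm1, an antiviral membrane protein, at 2.13, 1.64 and 1.41. The signal transducer Stat2 (-0.18) was not called.

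Metabolic genes differed by pathway. Of 33 genes of cholesterol and fatty acid synthesis, 23 were higher and 4 lower, with a median of 1.50. Hmgcs1, an early enzyme of the mevalonate pathway, was at 2.47, 2.56 and 3.02, and the late sterol enzymes Tm7sf2 (4.08), Sc5d (3.91) and Hsd17b7 (3.36) were among the highest. The desaturases Fads1 (-3.67), Fads2 (-1.80) and Scd2 (-2.28) were among the lower ones. For 30 of the 33, control 3 was above the mean of the other arrays.

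Of 39 xenobiotic and glutathione genes, 28 were higher and 1 was lower, with a median of 2.12. Cyp1a1, the P450 induced through the aryl hydrocarbon receptor, was at 5.69, 5.67 and 7.95. Cyp3a13 (5.40), Cyp2s1 (4.94) and Cyp2f2 (4.55), further P450 enzymes, and the carboxylesterase Ces1d (5.46) were high as well. The glutathione transferases Gsta1 (4.06) and Gstm1 (3.89) were higher, though the Gsta and Gstm genes are near copies. The regulatory and catalytic subunits of glutathione synthesis, Gclm (0.47) and Gclc (0.58), were not called, and Cyp2c55 was the lower gene at -3.67.

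Of 30 genes of retinoid and aldehyde metabolism, 20 were higher and 1 was lower, with a median of 1.95. The fatty acid carrier Fabp5 was at 6.68, 6.61 and 7.18. The retinol dehydrogenases Sdr16c5 (5.44) and Sdr16c6 (4.74) and the retinoic acid carrier Crabp2 (4.40) were also higher.

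Glycolysis and hypoxia genes were lower in 18 of 32 cases and higher in 2 (15 and 1 without control 3), with a median of -1.03. Pgk1, a glycolytic enzyme, was at -2.12, -2.05 and -2.44, and the hypoxia-induced genes Ndrg1 (-3.22) and Bnip3 (-2.75) were lower still. Pfkfb4, an isoform of the enzyme that sets the pace of glycolysis, was higher at 3.48, 3.45 and 4.23. Subunits of oxidative phosphorylation were close to the reference: of 48 tested, 1 was higher, 2 were lower, and the median was 0.27, and without control 3 there were 3 higher and 1 lower. Ndufa4 (1.85) was the higher one, and Cox6a2 (-3.64), the subunit of heart and skeletal muscle, and Sdhd (-1.03) were the lower ones.

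Among the signalling lists, the EGF receptor family had the largest share of higher members. Of 15 tested, 11 were higher and 1 was lower, with a median of 1.80. The ligands Btc (3.58, 3.49 and 4.82), Tgfa (3.44, 3.60 and 4.05), Epgn (4.13, 3.87 and 2.97), Egf (3.27, 3.25 and 2.78) and Ereg (1.73, 1.47 and 3.57) were higher. The receptors Egfr (1.79), Erbb2 (1.44) and Erbb3 (3.47) were higher too, and Nrg1 was lower at -1.63. Btc, Tgfa and Ereg were highest on control 3, and Epgn and Egf lowest.

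Of 19 FGF genes, 5 were higher and 10 lower. Fgfr2 (3.08), whose epithelial isoform receives mesenchymal signals, and Fgfr3 (1.95) were higher, and Fgfr1 (-1.85) was lower. The mesenchymal ligands of Fgfr2, Fgf7 (-3.53) and Fgf10 (-2.84), were lower, and the feedback inhibitors Dusp6 (-2.40), Spry4 (-1.76) and Spry2 (-1.52) were as well.

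Of 34 Wnt genes, 14 were higher and 8 lower (16 and 6 without control 3). The receptor Fzd10 was at 4.41, 4.38 and 4.78, and the ligands Wnt3a (3.79), Wnt4 (3.20), Wnt16 (2.81) and Wnt7b (2.67) were higher. Of 25 Notch genes, 7 were higher and 4 lower. Nrarp, a feedback inhibitor and target of the pathway, was at 6.59, 6.39 and 7.09. The ligands Dll1 (3.68), Jag1 (3.58) and Jag2 (2.34) and the receptors Notch3 (2.16) and Notch1 (1.55) were higher, Hes1 (0.79) was not called, and Hey1 (-2.67) and the DNA-binding mediator Rbpj (-3.56) were lower.

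Of 34 BMP and TGF-beta genes, 8 were higher and 15 lower (8 and 12 without control 3). Bmp7 was at 3.60, 3.50 and 3.58, and Bmp2 (3.44) and the inhibitor Id4 (4.50) were higher, whereas Tgfb3 (-2.94) was lower. Of 15 Hedgehog genes, 1 was higher and 5 lower (2 and 5 without control 3), and the mediators Gli2 (-1.72) and Gli3 (-1.90) were among the latter. Shh was at 3.43, 2.78 and 0.11 and was not called, and its reference signal was not well above background on any array.

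Of 25 immediate early genes, 2 were higher and 9 lower, with Fos at -3.11, -3.06 and -2.01 and Egr3 at 2.88, 2.99 and 3.30. Of 23 heat shock chaperones, 6 were higher and 4 lower, or 6 and 2 without control 3. The inducible Hspa1a was at 4.77, 4.77 and 5.55, with its near copy Hspa1b at 3.89 on average, and the collagen chaperone Serpinh1 was lower at -2.36. Of 32 genes of the unfolded protein and amino acid stress responses, 2 were higher and 12 lower. The cystine carrier Slc7a11 was at 3.07, 3.25 and 4.21, and Asns (-1.93), Trib3 (-1.95) and Mthfd2 (-1.67), targets of the amino acid response, were lower.

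Of 19 imprinted growth-control genes, 2 were higher and 7 lower. Plagl1, a growth-restraining transcription factor, was at 4.26, 4.55 and 5.33, and Phlda2 was at 4.51, 4.28 and 5.27. Grb10 (-3.89), Dlk1 (-3.25) and Slc38a4 (-3.26) were among the lower ones. Of 18 pluripotency and germline genes tested, 3 were higher and 3 lower, and 8 more were on the array but too dim. Tdrd1, a germline gene, was the highest at 4.56, 4.48 and 5.25. Of 17 hepatocyte and yolk sac genes, 4 were higher and 3 lower, and without control 3 the counts were 10 and 3. Fetub, which encodes a fetuin, was at 6.32, 6.24 and 7.44, and Apoc1, an apolipoprotein, at 5.02, 4.87 and 5.87, whereas Afp, of fetal liver and yolk sac, was at -3.10, -3.45 and -4.57. Of 14 melanocyte and neural genes, 2 were higher and 6 lower. Dct, of melanocytes, was not above background in the reference on any array and was at least 6.13-fold higher in the forestomach.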

How the data were processed

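Total RNA of forestomach epithelial sheets was labelled with Cy5 and Agilent's reference RNA with Cy3, per the labels, with no dye swap. The intensities are the mean spot signals that the authors deposited as scanner output, with the local background beside them; per the file headers, controls 1 and 2 were extracted with version 10.5.1.1 of Agilent Feature Extraction and control 3 with 10.7.3.1, while the submitters' processing notes name version 9.1. The authors' deposited table of log2 ratios matched each array's own scanner values best (r = 0.987, 0.988 and 0.961) with slopes between 1.10 and 1.16; its column medians lay between 0.012 and 0.052, its scaling and centring are unknown, and it served as an alternative.

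Signals were background-corrected with normexp (offset 50) and loess-normalised within each array in limma 3.58.1 under R 4.3.3, with control spots and outliers at weight 0, and spots of a probe were averaged. Loess sets the centre of each array to 0, so a ratio is relative to the bulk of genes. The mean ratio over the 3 arrays was tested against 0 (two-sided) with lmFit and eBayes over 31608 probes, with Benjamini-Hochberg adjustment. SD is over 3 arrays, whose number limits the precision. Of 41174 non-control probes, 32713 (79.5%) got a symbol from RefSeq (GRCm38.p6); the probe with the highest mean signal stood for its gene. Of 4084 further probes of called genes, 240 had the opposite sign. The method was tested on simulated data.

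The gene lists and members were chosen with earlier results of these data known. Genes were named by rule: the 6 markers, the 20 called genes with the highest and the 20 with the lowest mean ratio that have a symbol other than a clone name, the 10 list genes with the largest and the 10 with the smallest difference between control 3 and the other arrays, and up to 6 members of each list with the largest ratios. Other list members were named for their known role after their values were seen. Alternatives changed the signal, background correction, normalisation, filter, probe choice, table, arrays and thresholds. Some genes that the rule names are not reported here.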

Additional observations from a re-analysis of the deposited data

How the results depend on the processing

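The counts of 3205 higher and 3189 lower genes stayed within 1.5 times under each alternative setting of the signals, the normalisation, the filter and the arrays. They ran from 3154 to 3446 and from 2919 to 3405 when 1 array was left out, were 3553 and 3628 with the authors' deposited table, and were 3397 and 4095 with the scanner software's processed signals. Thresholds moved them more: an adjusted p alone gave 5390 higher and 5616 lower genes, and a minimum of 4-fold gave 1603 and 1097. Without an adjustment, 11765 genes had p under 0.05 by limma. Of 311 genes named, those with a value kept their direction under each of the 12 settings except Foxa2, Krt19, Krt20, Dcn, Des, Sox9 and Sox21. Foxa2 (mean 0.74) was at -0.15 with processed signals, -0.13 with controls 1 and 2 averaged, and between -0.26 and 2.50 with 1 array left out. On leaving out an array, Krt19 ran from -1.11 to 1.37, Krt20 from -2.09 to 0.65, Dcn from -0.52 to 0.0893 and Des from -0.0368 to 1.47, with the value of the other sign coming without control 3, or without control 1 for Des. Sox9 was at 4.46 on the probe with the highest forestomach signal, and Sox21 at -1.68 where probes had to be above background in both channels on all arrays. With probes required above background in both channels on all arrays, 266 of the named genes had a value and 45 had none. Of 612 medians of lists under the alternatives, 90 moved by at least the SD of the list median over the 3 arrays and 15, in 8 lists, changed sign, among them the hemidesmosome list (0.18 to -0.09 with that filter) and the simple keratins (-1.09 to 0.65 without control 3). A random block for the slide could not be fitted with 3 arrays; averaging controls 1 and 2 first gave 3134 and 3330 genes. No paired analysis was possible because all 3 arrays belong to 1 group. The lower signal over background on control 3 limits what can be said of dim genes there, and its differences from controls 1 and 2 rest on 1 array.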
